A study of Mus musculus with 24 samples.

Results

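The genes of arginine and polyamine metabolism were followed in mouse bone marrow-derived macrophages (BMDMs). The group was set by symbol and held 10 genes (*Arg1*, *Arg2*, *Nos2*, *Ass1*, *Asl*, *Slc7a2*, *Odc1*, *Srm*, *Sms* and *Sat1*) out of 35770 gene symbols in the expression table, and all 10 were among the 13661 genes tested. BMDMs came from C57BL/6 mice, whose age was not given, and every culture, controls included, was grown with 20 ng/mL M-CSF, the growth factor that turns marrow progenitors into macrophages. Naïve BMDMs then stayed in control medium that had never seen cancer cells (media) or were moved to a mix holding 75% conditioned medium (CM) collected over 48 h from LL2 (Lewis lung carcinoma) cells, a mouse lung cancer line. The LL2 cells were unedited (WT), KEAP1 KO or NRF2 KO. CRISPR editing had been done in the cancer cells and not in the macrophages, so the level of the targeted genes in these libraries checks nothing about the knockouts. The library names carry the same identifier throughout for each knockout line. Whether it names a single clone was not stated in the sources used here. During the 24 h of exposure the BMDMs also received vehicle or 100 nM CDDO-Me, a synthetic triterpenoid that activates NRF2, the transcription factor that KEAP1 holds in check. The 4 media and 2 treatments made 8 groups of 3 libraries each, 24 in all, described as independent samples. Whether the 3 came from different mice was not stated, so p-values measure the spread between these samples.

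Arginine is the shared substrate of competing macrophage enzymes. Arginase splits it into urea and ornithine, from which ornithine decarboxylase and the spermidine and spermine synthases build polyamines, while inducible nitric oxide synthase turns it into nitric oxide and citrulline, which argininosuccinate synthase and lyase recycle to arginine. High *Arg1* is a familiar mark of alternatively activated and tumor-associated macrophages, and high *Nos2* of classically activated macrophages.

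Levels are the deposited values, read as TPM (transcripts per 1000000, a length-corrected share of each library) because each library sums to 1000000. The table is named as length-scaled counts, so setting levels of different genes side by side rests on that reading. Differences are log2 differences of scaled TPM with 1 added, which understates the change of genes near 0, and a difference was called at an adjusted p under 0.05. Values after ± are SD for levels (n = 3) and SE for differences. With 3 libraries against 3, an exact permutation test cannot give a two-sided p below 0.1, so the tests come from the limma fit across all genes. Genes were tested if they exceeded 1 TPM in at least 3 libraries. *Nos2* did so in 6 libraries and *Arg1* in 7, and both passed through the groups where they are high, so each had to differ somewhere, and counts of members that include them are no evidence about the group.

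The libraries had the character of macrophages, with a summed level of 8 macrophage markers of 14930 to 38390 TPM. *Lyz2* alone, at 12080 to 34330 TPM, made up most of that sum. With CDDO-Me in WT and in KEAP1 KO CM, *Fcgr1* and *Mertk* were called higher and *Cd68* lower, and no other marker of the 8 was called. The deposited values hold no read counts, so the depth of each library is unknown. The replicate 3 libraries of the NRF2 KO CM groups stood apart, with 15702 (vehicle) and 16299 (CDDO-Me) genes above 0, against at least 17817 in the other 22. Fibroblast markers (10 genes, none at 0 in every library) summed to 176 to 2182 TPM and were lowest in replicate 3 in 8 of 8 groups. The other marker lists stayed low, at most 76.2 TPM for neutrophils (8 genes), 17.2 for basophils and mast cells (6 genes), 16.7 for T and B cells (7 genes), 9.35 for epithelial cells (6 genes) and 5.24 for dendritic cells (6 genes). *Epcam*, *Cldn4*, *Ly6g*, *Mpo*, *Fcer1a*, *Ms4a2*, *Prss34*, *Cd3e* and *Cd79a* were under 1 TPM in every library. In these bulk samples, fewer cells of a type and less RNA per cell cannot be told apart. CDDO-Me raised 8 of 8 NRF2 target genes in media, KEAP1 KO CM and NRF2 KO CM and 7 of 8 in WT CM.

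The members lie on 8 chromosomes of GRCm39. *Arg1* (ENSMUSG00000019987.11) is at chr10:24791118-24803817 on the minus strand, *Slc7a2* (ENSMUSG00000031596.17) at chr8:41315431-41375345 on the plus strand, *Nos2* (ENSMUSG00000020826.10) at chr11:78811613-78851080 on the plus strand and *Ass1* (ENSMUSG00000076441.11) at chr2:31352181-31410862 on the plus strand. Upstream sequence is shown for 4 members called under CDDO-Me whose 250 bases before the canonical transcript start overlap no annotated exon (GENCODE vM39). *Sat1* met the same terms and is not printed. Capitals mark matches to 7 motifs searched on both strands, and positions count back from the transcript start, the base just before it being -1. *Nos2* is at chr11:78811363-78811612 (+), *Ass1* at chr2:31359904-31360153 (+, inside the gene's longer annotated span), *Srm* at chr4:148675690-148675939 (+) and *Arg2* at chr12:79177274-79177523 (+).
Nos2: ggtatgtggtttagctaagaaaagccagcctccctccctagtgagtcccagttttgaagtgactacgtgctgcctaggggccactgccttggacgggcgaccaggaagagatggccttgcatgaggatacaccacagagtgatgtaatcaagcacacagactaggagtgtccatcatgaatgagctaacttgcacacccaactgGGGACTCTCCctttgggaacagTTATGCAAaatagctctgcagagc
Ass1: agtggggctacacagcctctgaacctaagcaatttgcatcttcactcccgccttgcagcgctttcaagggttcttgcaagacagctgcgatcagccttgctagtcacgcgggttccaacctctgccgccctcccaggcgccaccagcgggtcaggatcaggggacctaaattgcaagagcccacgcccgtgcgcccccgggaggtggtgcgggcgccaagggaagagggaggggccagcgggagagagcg
Srm: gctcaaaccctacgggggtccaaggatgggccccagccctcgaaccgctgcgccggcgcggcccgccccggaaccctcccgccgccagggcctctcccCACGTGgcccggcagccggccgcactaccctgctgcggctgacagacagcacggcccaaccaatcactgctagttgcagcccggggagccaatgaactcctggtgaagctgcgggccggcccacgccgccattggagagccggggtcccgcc
Arg2: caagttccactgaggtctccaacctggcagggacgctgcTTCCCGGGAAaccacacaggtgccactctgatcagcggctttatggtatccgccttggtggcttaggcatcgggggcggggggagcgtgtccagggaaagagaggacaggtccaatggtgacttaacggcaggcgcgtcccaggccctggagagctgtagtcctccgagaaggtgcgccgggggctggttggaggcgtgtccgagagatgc

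The *Nos2* window held a kappaB motif at -46 to -37, found in 4.23% of the 21770 windows of the same length before protein-coding genes, and a C/EBP motif (TTGCNNAA) at -24 to -17, found in 9.34%. *Srm* held an E-box (CACGTG, in 6.26% of windows) at -152 to -147. *Slc7a2* held E-boxes at -227 to -222 and -16 to -11 and *Sms* held one at -183 to -178, and these windows are not printed because they overlap exons. *Arg2* held a STAT6 motif (5.89% of windows) at -211 to -202. No window of a member held the antioxidant response element (TGACNNNGC, 9.69%), the GAS motif (TTCNNNGAA, 7.70%) or the interferon-stimulated response element (3.32%), and the *Ass1* window held none of the 7. Annotated exons covered 250 of the 250 bases of the *Arg1* window, 248 of the *Odc1* window and 57 of the *Asl* window. These matches and absences describe letters only.

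Conditioned medium from WT and KEAP1 KO cells raised the arginase *Arg1* and the arginine transporter *Slc7a2* in vehicle-treated BMDMs, and NRF2 KO CM did not raise any member past the threshold. *Arg1*, the cytosolic arginase, read 0.0884, 0.301 and 0.128 TPM in media/vehicle. It read 681, 765 and 544 TPM in WT CM/vehicle and 947, 936 and 1121 TPM in KEAP1 KO CM/vehicle. It read 0.548, 0.0532 and 1.30 TPM in NRF2 KO CM/vehicle. WT and KEAP1 KO CM therefore lay far above media with no overlap, and NRF2 KO CM overlapped media. *Arg1* passed the filter on low values only through its WT and KEAP1 KO CM/vehicle libraries. Its tests of these groups, here and with CDDO-Me, restate its levels. The log2 difference from media was 9.15 ± 0.208 for WT CM (adjusted p = 1.05e-16), 9.69 ± 0.208 for KEAP1 KO CM (adjusted p = 3.63e-17) and 0.41 (95% interval -0.02 to 0.85, adjusted p = 0.408) for NRF2 KO CM. Without the NRF2 KO CM replicate 3 libraries the last of these was 0.12 (adjusted p = 0.963) for *Arg1*.

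*Slc7a2*, a cationic amino acid transporter that carries arginine into the cell, read 5.22, 5.25 and 5.64 TPM in media/vehicle. The values were 47.7, 47.5 and 64.0 TPM in WT CM/vehicle, 62.7, 52.2 and 62.6 TPM in KEAP1 KO CM/vehicle, and 6.04, 7.51 and 5.03 TPM in NRF2 KO CM/vehicle. WT and KEAP1 KO CM were again clear of media, while NRF2 KO CM overlapped it. Relative to media, the log2 difference was 3.13 ± 0.263 for WT CM (adjusted p = 9.68e-08) and 3.23 ± 0.263 for KEAP1 KO CM (adjusted p = 6.74e-08). *Arg1* and *Slc7a2* were also higher in WT CM than in NRF2 KO CM, by 8.74 ± 0.208 (adjusted p = 2.51e-16) and 2.97 ± 0.263 (adjusted p = 2.25e-07) on the log2 scale.

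The members called against media were 2 of 10 for WT CM, where 7.23% of all genes tested were called, and 3 of 10 for KEAP1 KO CM, where 8.06% were. For WT CM and media, libraries with the same replicate number deviated together in every pair (r above 0.1). With that number as a block 4 of 10 members were called, *Odc1* (adjusted p = 0.0443) and *Sat1* (0.53, adjusted p = 0.0203) being added, with 1743 genes called in place of 988. For NRF2 KO CM it was 0 of 10 in the limma fit, where 0.00732% of genes were called, with 1650 genes and 1 member (*Asl*) at an unadjusted p under 0.05. Against NRF2 KO CM, 2 of 10 members were called for WT CM (10.6% of all genes called) and 4 of 10 for KEAP1 KO CM (9.04%), all of them higher. The median log2 difference of the 10 members from media was 0.35 in WT CM and 0.50 in KEAP1 KO CM, against 0.01 over all genes in each. The 10 include *Arg1*, tested only through these CM groups, and were chosen with earlier results known. These medians are therefore no evidence of a shift of the group.

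**Figure D1:**
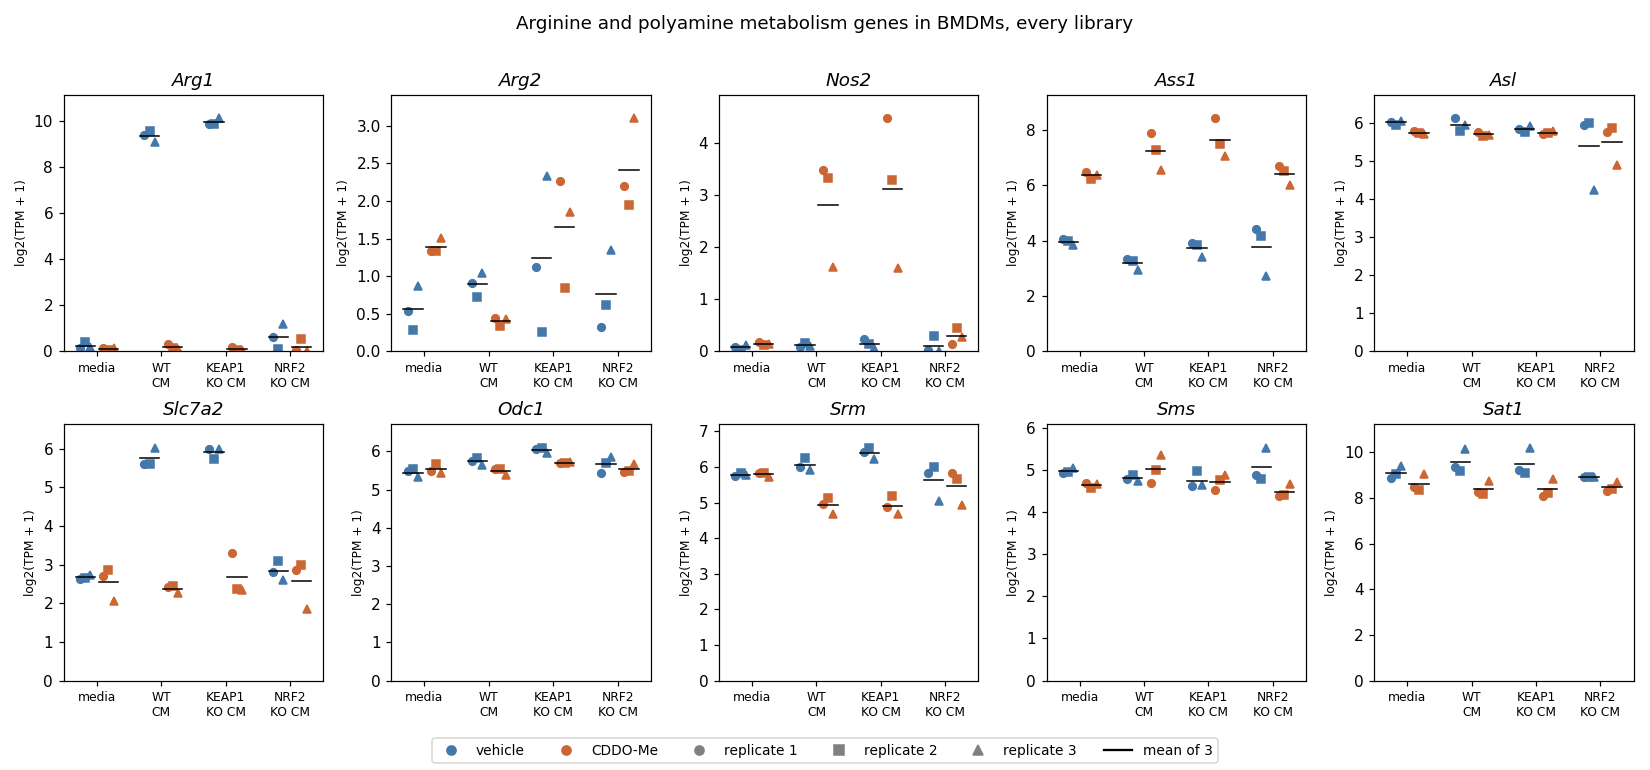
Each panel plots log2(TPM + 1) of a member on the vertical axis in the 4 media, for vehicle and CDDO-Me, with 1 point per library, the symbol giving the replicate number and a bar at the mean of 3. *Arg1* and *Slc7a2* stand high only in WT and KEAP1 KO CM with vehicle, *Nos2* only in the same media with CDDO-Me, and *Ass1* in all 4 CDDO-Me groups.

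Of the polyamine genes, *Odc1* rose in KEAP1 KO CM. *Odc1*, ornithine decarboxylase, makes putrescine and is the entry step of the pathway. It read 43.6, 45.5 and 39.0 TPM in media/vehicle, 52.3, 55.8 and 49.2 TPM in WT CM/vehicle, and 66.1, 67.4 and 61.7 TPM in KEAP1 KO CM/vehicle. The 3 groups did not overlap. The log2 difference from media was 0.60 ± 0.114 for KEAP1 KO CM (adjusted p = 0.00172) and 0.36 ± 0.114 for WT CM (adjusted p = 0.0656). NRF2 KO CM/vehicle read 42.0, 51.0 and 56.5 TPM, overlapping media and WT CM, and KEAP1 KO CM was above it by 0.39 ± 0.114 (adjusted p = 0.0389), a call lost in 6 of the fits that left out 1 library and with another scaling (adjusted p = 0.0612).

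*Srm*, spermidine synthase, read 53.0, 56.1 and 53.5 TPM in media/vehicle, 63.2, 75.7 and 59.8 TPM in WT CM/vehicle, and 84.3, 92.0 and 73.9 TPM in KEAP1 KO CM/vehicle. Both CM groups lay above media without overlap, but neither passed the threshold (log2 difference 0.35 ± 0.187, adjusted p = 0.365, and 0.61 ± 0.187, adjusted p = 0.0516). With the replicate number as a block, *Srm* was called for KEAP1 KO CM against media. NRF2 KO CM/vehicle read 55.3, 63.1 and 31.9 TPM, the last in the replicate 3 library that stood apart. KEAP1 KO CM was above NRF2 KO CM by 0.77 ± 0.187 (adjusted p = 0.0123), and the call was lost without NRF2 KO CM/vehicle replicate 3 (0.53, adjusted p = 0.0645) or KEAP1 KO CM/vehicle replicate 2 (0.72, adjusted p = 0.0534). When both NRF2 KO CM replicate 3 libraries were left out, *Odc1* (0.36, adjusted p = 0.00113) and *Srm* (0.35, adjusted p = 0.0274) were also called for WT CM against media. *Srm* was called for KEAP1 KO CM too (0.61, adjusted p = 0.000437). Calls over all genes rose in that fit as well, by the numbers given in the section on processing, so the added calls are not particular to the members. *Srm* in KEAP1 KO CM was then above NRF2 KO CM by 0.53 (adjusted p = 0.00547).

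*Sat1*, the acetyltransferase that marks spermidine and spermine for export or breakdown, read highest of the members in media, at 466, 522 and 674 TPM with vehicle. It read 659, 586 and 1120 TPM in WT CM/vehicle, 601, 538 and 1173 TPM in KEAP1 KO CM/vehicle, and 487, 482 and 484 TPM in NRF2 KO CM/vehicle. Replicate 3 was highest in the first 3 of these groups, and WT and KEAP1 KO CM overlapped media. Both of these CM groups lay above NRF2 KO CM without overlap. No difference between media was called for *Sat1* with vehicle in the fit of all 24 libraries without a replicate block, while the block added calls.

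KEAP1 KO CM and WT CM were not told apart for any member: 0 of 10 were called in the limma fit, where 0% of all genes were, with 350 genes and 2 members at an unadjusted p under 0.05. Those members were *Arg1*, higher in KEAP1 KO CM by 0.53 (95% interval 0.10 to 0.97, adjusted p = 1.00) with no overlap of libraries, and *Odc1* (0.24, 95% interval 0.00 to 0.48, adjusted p = 1.00). For *Slc7a2* the difference was 0.10 (95% interval -0.45 to 0.65). Libraries with the same replicate number deviated together in these groups (r = 0.150, 0.353 and 0.474). In unscaled TPM, *Arg1*, *Odc1*, *Srm* and *Ass1* read higher in KEAP1 KO CM at each of the 3 numbers. The share of all genes that did so was not computed. Over all genes tested, 10.9% were higher in KEAP1 KO CM without overlap of libraries and 2.65% lower, so this direction is not particular to the members. With the number as a block, 0 of 10 members and 2 genes were called, and the adjusted p was 0.786 for *Arg1* and 0.919 for *Odc1*.

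**Figure D2:**
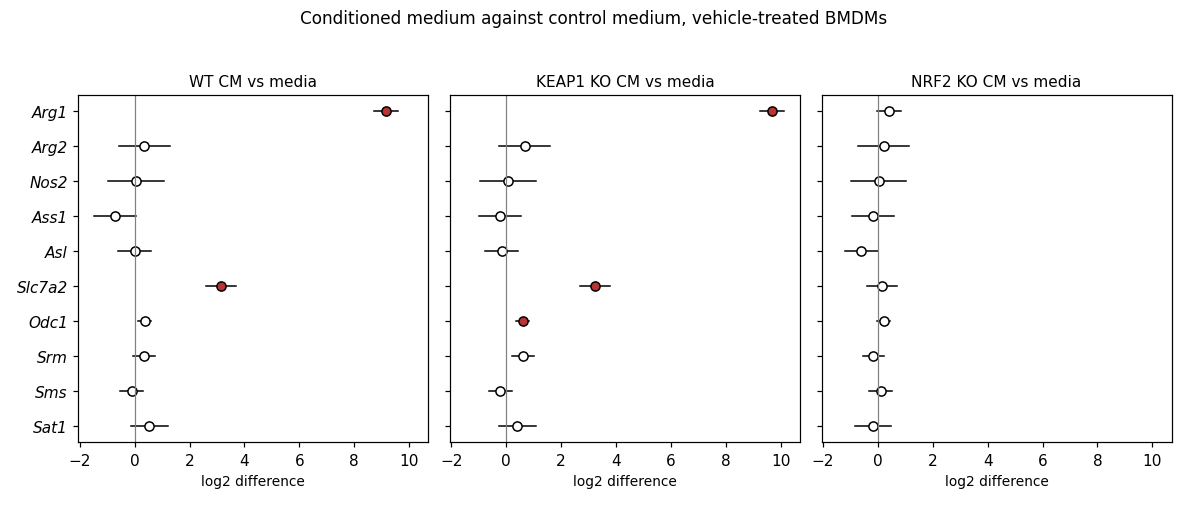
The horizontal axis gives the log2 difference of scaled TPM + 1 between each CM and media in vehicle-treated BMDMs, with lines for 95% intervals and filled points for an adjusted p under 0.05. *Arg1* and *Slc7a2* are filled for WT and KEAP1 KO CM, *Odc1* for KEAP1 KO CM, and no point is filled for NRF2 KO CM.

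CDDO-Me lowered *Arg1* and *Slc7a2* in BMDMs in WT and KEAP1 KO CM to levels that overlapped media/CDDO-Me. *Arg1* read 0.239, 0.0823 and 0.0554 TPM in WT CM/CDDO-Me and 0.124, 0.0290 and 0.0423 TPM in KEAP1 KO CM/CDDO-Me. It read 0.0990, 0.0269 and 0.0943 TPM in media/CDDO-Me, and 0.0281, 0.427 and 0 TPM in NRF2 KO CM/CDDO-Me. All 4 CDDO-Me groups overlapped each other. The log2 difference from vehicle was -9.19 ± 0.208 in WT CM (adjusted p = 2.17e-17) and -9.81 ± 0.208 in KEAP1 KO CM (adjusted p = 1.41e-17).

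*Slc7a2* read 4.30, 4.49 and 3.77 TPM in WT CM/CDDO-Me and 8.84, 4.15 and 4.10 TPM in KEAP1 KO CM/CDDO-Me. It read 5.54, 6.19 and 3.16 TPM in media/CDDO-Me and 6.29, 6.95 and 2.58 TPM in NRF2 KO CM/CDDO-Me. Unlike *Arg1*, it kept a level of several TPM in every group. Relative to vehicle, the log2 difference was -3.26 ± 0.263 in WT CM (adjusted p = 8.33e-09) and -3.08 ± 0.263 in KEAP1 KO CM (adjusted p = 1.91e-08). In the order of group means, KEAP1 KO CM/vehicle (59.2 ± 6.07 TPM) and WT CM/vehicle (53.0 ± 9.45 TPM) came first and overlapped, and the other 6 groups lay between 4.19 and 6.19 TPM, each overlapping the next.

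*Nos2*, inducible nitric oxide synthase, was found above 1 TPM only where CDDO-Me met WT or KEAP1 KO CM. It read 10.3, 9.07 and 2.09 TPM in WT CM/CDDO-Me and 21.3, 8.76 and 2.03 TPM in KEAP1 KO CM/CDDO-Me. The highest of the other 18 libraries read 0.357 TPM, in NRF2 KO CM/CDDO-Me. The spread was wide, and replicate 3 was the lowest in both groups. The log2 difference from vehicle was 2.81 ± 0.485 in WT CM (adjusted p = 0.000134) and 3.07 ± 0.485 in KEAP1 KO CM (adjusted p = 4.92e-05). *Nos2* passed the filter on low values only through these CM/CDDO-Me libraries, so its tests restate its levels. Adding 0.1 in place of 1 moved these to 5.15 and 5.35.

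*Ass1*, argininosuccinate synthase, the enzyme that begins the return of citrulline to arginine, rose with CDDO-Me in all 4 media. It read 15.6, 14.9 and 13.2 TPM in media/vehicle and 88.4, 73.6 and 81.5 TPM in media/CDDO-Me. It went from 9.17, 8.59 and 6.69 TPM to 233, 154 and 93.6 TPM in WT CM, and from 13.9, 13.4 and 9.60 TPM to 342, 178 and 131 TPM in KEAP1 KO CM. In NRF2 KO CM it went from 20.5, 17.0 and 5.65 TPM to 103, 90.7 and 63.1 TPM. Every CDDO-Me library lay above every vehicle library, and replicate 1 was the highest in 8 of 8 groups. The log2 difference was 2.42 ± 0.364 in media (adjusted p = 0.000225), 4.18 ± 0.364 in WT CM (adjusted p = 2.52e-08), 4.10 ± 0.364 in KEAP1 KO CM (adjusted p = 3.51e-08) and 2.66 ± 0.364 in NRF2 KO CM (adjusted p = 5.47e-05), which was 2.33 (adjusted p = 0.000301) without its replicate 3 libraries.

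*Asl*, argininosuccinate lyase, which completes that return, was not called in any comparison. It ranged from 50.2 to 69.3 TPM in the 22 libraries other than the NRF2 KO CM replicate 3 libraries, where it read 18.1 (vehicle) and 29.1 TPM (CDDO-Me).

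*Arg2*, the mitochondrial arginase, was a low-level gene. It read 0.252, 0.527 and 1.54 TPM in NRF2 KO CM/vehicle and 3.58, 2.85 and 7.59 TPM in NRF2 KO CM/CDDO-Me, a log2 difference of 1.65 ± 0.441 (adjusted p = 0.0201) with no overlap. The call was lost for *Arg2* without NRF2 KO CM/vehicle replicate 1 (adjusted p = 0.0770) or 2 (0.0565), or without NRF2 KO CM/CDDO-Me replicate 3 (0.103), and without both replicate 3 libraries the difference was 1.58 (adjusted p = 0.0496). Adding 0.1 in place of 1 moved the difference to 2.64. In the other groups *Arg2* read 0.189 to 4.04 TPM, and both ends of that range were in KEAP1 KO CM/vehicle.

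Among the polyamine genes, *Srm* and *Sat1* were called lower with CDDO-Me in WT and KEAP1 KO CM, and for *Sat1* the effect there was not told apart from that in media. *Srm* read 30.3, 33.9 and 24.7 TPM in WT CM/CDDO-Me and 28.3, 35.7 and 24.7 TPM in KEAP1 KO CM/CDDO-Me. Media/CDDO-Me stayed at 55.8, 56.1 and 52.0 TPM, and NRF2 KO CM/CDDO-Me read 55.4, 49.7 and 29.2 TPM. Relative to vehicle, *Srm* differed on the log2 scale by -1.01 ± 0.187 in WT CM (adjusted p = 0.000297) and -1.31 ± 0.187 in KEAP1 KO CM (adjusted p = 1.58e-05). Both groups were also below media/vehicle, by -0.66 ± 0.187 (adjusted p = 0.0113) and -0.70 ± 0.187 (adjusted p = 0.00774), the first not called without WT CM/CDDO-Me replicate 3 (-0.56, adjusted p = 0.0654).

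*Sat1* read 306, 288 and 431 TPM in WT CM/CDDO-Me and 274, 297 and 447 TPM in KEAP1 KO CM/CDDO-Me, below every vehicle library of the same media. It read 355, 320 and 535 TPM in media/CDDO-Me, overlapping media/vehicle. NRF2 KO CM/CDDO-Me read 317, 332 and 418 TPM, below every NRF2 KO CM/vehicle library. The log2 difference from vehicle was -0.46 in media and -0.42 in NRF2 KO CM, neither called. The drug effect on *Sat1* was not called different from that in media for WT CM (-0.58, adjusted p = 0.508) or KEAP1 KO CM (-0.50, adjusted p = 0.581). Within WT CM the log2 difference of *Sat1* from vehicle was -1.04 ± 0.319 (adjusted p = 0.0185), and within KEAP1 KO CM it was -0.95 ± 0.319 (adjusted p = 0.0289). The call of *Sat1* in KEAP1 KO CM was lost with no filter on low values (-0.95, adjusted p = 0.0581). Each *Sat1* call was lost in 3 of the fits that left out 1 library, among them those without WT CM/vehicle replicate 3 (-0.73, adjusted p = 0.125) and without KEAP1 KO CM/vehicle replicate 3 (-0.59, adjusted p = 0.195).

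*Odc1* read 45.2, 45.9 and 41.0 TPM in WT CM/CDDO-Me, 50.8, 51.1 and 51.7 TPM in KEAP1 KO CM/CDDO-Me, and 42.6 to 50.1 TPM with CDDO-Me in the other media. CDDO-Me did not change it past the threshold in any medium, and in KEAP1 KO CM/CDDO-Me it was above media/vehicle by 0.43 ± 0.114 (adjusted p = 0.00787), a call lost without scaling (adjusted p = 0.0650). *Sms*, spermine synthase, read 19.9 to 45.4 TPM and was not called in any comparison in the fit without a replicate block. A related pseudogene, *Sms-ps*, had its own values of 16.3 to 29.2 TPM, so the division of reads between them is uncertain.

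With CDDO-Me, 1 of 10 members was called in media (6.02% of all genes called), 6 of 10 in WT CM (27.9%), 6 of 10 in KEAP1 KO CM (28.8%) and 2 of 10 in NRF2 KO CM (9.61%). The members called in WT CM and in KEAP1 KO CM were the same 6, with *Nos2* and *Ass1* higher (14.4% of all genes in either medium) and *Arg1*, *Slc7a2*, *Srm* and *Sat1* lower (13.4% of all genes in WT CM and 14.3% in KEAP1 KO CM). Of all genes called, 51.8% were higher in WT CM and 50.2% in KEAP1 KO CM, and without scaling 39.1% and 34.6%. Against media/vehicle, 3 of 10 members were called in WT CM/CDDO-Me (26.8% of all genes called), 4 of 10 in KEAP1 KO CM/CDDO-Me (25.9%) and 2 of 10 in NRF2 KO CM/CDDO-Me (10.2%). These comparisons share the media/vehicle libraries. Same-numbered libraries deviated together in every pair (r above 0.1) for CDDO-Me in media, where the replicate block changed no member's call (1464 genes called in place of 822), and for CDDO-Me in NRF2 KO CM, where it added *Sms* (-0.55, adjusted p = 0.0263). They also did so for KEAP1 KO CM/CDDO-Me and media/vehicle, where the block added *Arg2* (1.19, adjusted p = 0.00838) and *Sat1* (-0.55, adjusted p = 0.00651), and for NRF2 KO CM/CDDO-Me and media/vehicle, where it added *Sat1* (-0.60, adjusted p = 0.00839).

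**Figure D3:**
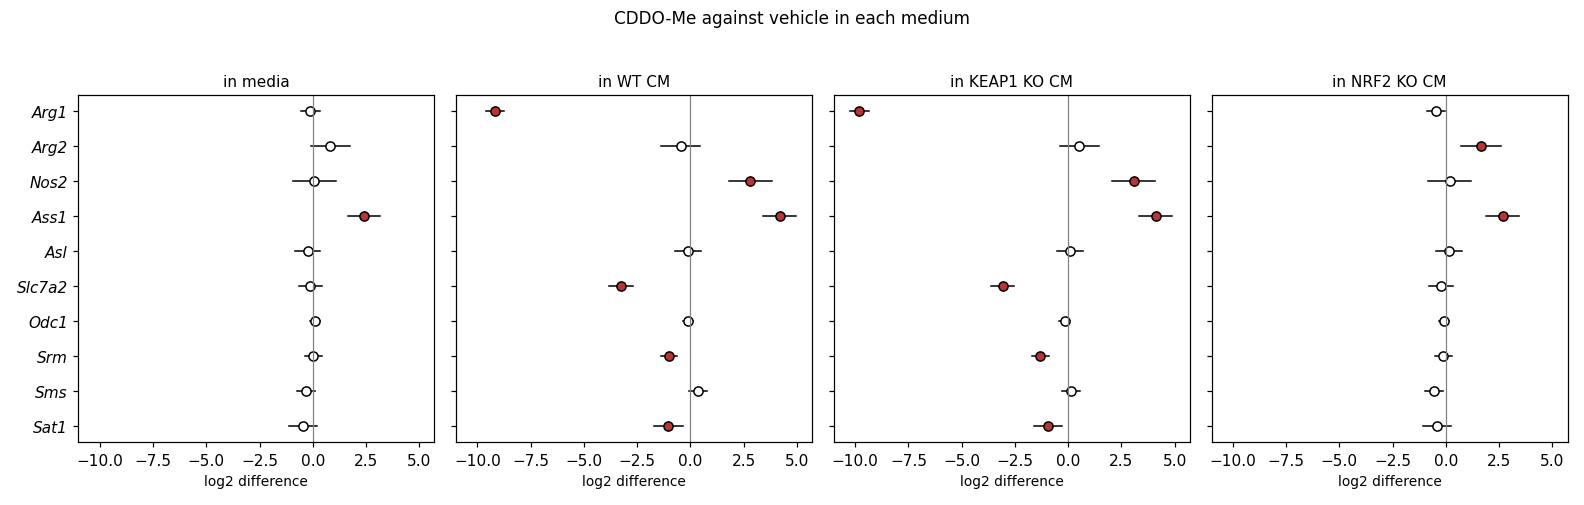
The horizontal axis gives the log2 difference of scaled TPM + 1 between CDDO-Me and vehicle in each of the 4 media, with lines for 95% intervals and filled points for an adjusted p under 0.05. *Ass1* is filled to the right in all 4 panels, and *Arg1*, *Slc7a2*, *Srm* and *Sat1* are filled to the left in WT and KEAP1 KO CM.

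The CDDO-Me effect in WT CM differed from that in media for *Slc7a2* and *Srm*, with a more negative effect in CM, and for *Ass1*, with a more positive effect, and KEAP1 KO CM set against media called the same genes. *Arg1* and *Nos2* also passed both tests, which makes 5 of 10 members (15.3% of all genes were called with WT CM and 14.8% with KEAP1 KO CM). *Arg1* read at most 0.301 TPM in media/vehicle, so with 1 added a fall in media could hardly show, and its difference restates its fall in CM. Even a complete loss of *Slc7a2* from its 5.22 to 5.64 TPM in media/vehicle would be smaller than its falls in CM. The sign of the *Slc7a2* difference was therefore fixed in advance, and its effect in media was -0.12. *Nos2* was tested only through the CM/CDDO-Me libraries where it is high. For *Ass1* the extra log2 effect was 1.77 ± 0.515 in WT CM (adjusted p = 0.0234) and 1.68 ± 0.515 in KEAP1 KO CM (adjusted p = 0.0317), lost in 4 and 6 of the fits that left out 1 library. In KEAP1 KO CM the *Ass1* call was also lost without scaling (1.53, adjusted p = 0.0622) and with no filter on low values (1.68, adjusted p = 0.0646). Between NRF2 KO CM and media, 0 of 10 members differed in the limma fit (0% of all genes called, 359 genes and 0 members at an unadjusted p under 0.05), and between KEAP1 KO CM and WT CM 0 of 10 (0% called, 224 genes and 1 member, *Arg1*, at an unadjusted p under 0.05).

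Genes on the marker lists of other cells moved with some of these results, and which cells expressed them was not tested. The summed level of the 10 fibroblast markers was 573 to 1172 TPM in WT CM/vehicle and 221 to 616 TPM in WT CM/CDDO-Me, and 807 to 1530 TPM and 176 to 820 TPM in the KEAP1 KO CM groups. Of the 10, *Pdgfra* was called lower with CDDO-Me in both media and *Postn* in KEAP1 KO CM. The 8 neutrophil markers summed to 16.6 to 25.8 TPM in KEAP1 KO CM/vehicle and 65.7 to 76.2 TPM in KEAP1 KO CM/CDDO-Me, with *Ly6g* and *Mpo* under 1 TPM everywhere. *S100a8* carried that difference, at 9.41 to 11.4 TPM against 50.2 to 63.9 TPM, and was the 1 marker of the list called, while *S100a9* read 4.18 to 13.2 TPM and 6.26 to 19.1 TPM. The 6 epithelial markers summed to 4.98 to 6.02 TPM in WT CM/vehicle and 8.77 to 9.35 TPM in KEAP1 KO CM/vehicle, against 0.214 to 3.54 TPM in the other 6 groups, with *Epcam* and *Cldn4* under 1 TPM everywhere. *Cdh1* was the 1 epithelial marker called against media, at 0.0213 to 0.0594 TPM in media/vehicle, 3.06 to 4.04 TPM in WT CM/vehicle and 4.23 to 5.19 TPM in KEAP1 KO CM/vehicle. *Krt19* read 1.53 to 2.40, 0.917 to 1.88 and 2.01 to 4.08 TPM in the same groups. The 6 dendritic cell markers summed to 1.18 to 1.87 TPM in media/vehicle, 4.15 to 5.22 TPM in WT CM/vehicle and 3.49 to 4.57 TPM in KEAP1 KO CM/vehicle, with *Cd209a* the 1 called and *Flt3*, *Siglech* and *Ccr7* under 1 TPM everywhere. The 7 T and B cell markers went the other way, from 12.5 to 15.2 TPM in media/vehicle to 6.30 to 6.85 TPM and 5.55 to 7.23 TPM. *Cd4* was the 1 called, and *Cd3e*, *Cd3d*, *Cd8a*, *Cd79a* and *Ms4a1* were under 1 TPM everywhere. Their part in the changes of the members was not tested.

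Genes beyond the 10 members were taken from lists of 33 other arginine and nitric oxide genes, 25 of them tested, and 27 other polyamine genes, 23 tested. In WT CM/vehicle, 4 of the 25 were higher than media and 0 lower, and in KEAP1 KO CM/vehicle 5 and 0. Over all genes tested, 4.38% were higher and 2.85% lower in WT CM, and 4.87% and 3.19% in KEAP1 KO CM. *Gatm*, which moves the amidino group of arginine to glycine in creatine synthesis, read 29.3, 28.3 and 37.2 TPM in media/vehicle and 155, 149 and 154 TPM in WT CM/vehicle (log2 difference 2.31 ± 0.236, adjusted p = 1.35e-06). *Slc7a1*, a second cationic amino acid transporter, rose by 0.66 ± 0.153 (adjusted p = 0.00979) in WT CM. Of the 23 polyamine genes, *Mat2a*, which makes S-adenosylmethionine, was the 1 higher in each (0.38 ± 0.0734, adjusted p = 0.00225, in WT CM). In NRF2 KO CM/vehicle 0 of 25 and 0 of 23 were called by limma in either direction.

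With CDDO-Me, 2 of 25 arginine and nitric oxide genes rose and 6 fell in WT CM, and 2 rose and 6 fell in KEAP1 KO CM. It was 1 and 3 in media and 2 and 4 in NRF2 KO CM. Of all genes, 14.4% rose and 13.4% fell in WT CM, 14.4% and 14.3% in KEAP1 KO CM, 3.22% and 2.80% in media, and 4.87% and 4.74% in NRF2 KO CM. *Slc3a2*, the heavy chain shared by several amino acid transporters, rose in all 4 media, by 1.61 ± 0.184 in WT CM (adjusted p = 9.33e-07), where it went from 231 to 276 TPM with vehicle to 625 to 750 TPM. *Slc7a1* fell by 0.79 ± 0.153 on the log2 scale in WT CM (adjusted p = 0.000456). *Gatm* fell by 1.89 ± 0.236 in NRF2 KO CM (adjusted p = 1.88e-05) and by 1.64 ± 0.236 in media (adjusted p = 0.000138). It was also among the genes called lower in WT CM and in KEAP1 KO CM. Of the 23 polyamine genes, 0 rose and 3 fell in WT CM, and 1 rose and 4 fell in KEAP1 KO CM, to be read against the same shares of all genes. *Azin1*, the antizyme inhibitor that protects ornithine decarboxylase, fell in all 4 media, by 0.95 ± 0.101 in WT CM (adjusted p = 3.34e-07).

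**Figure D4:**
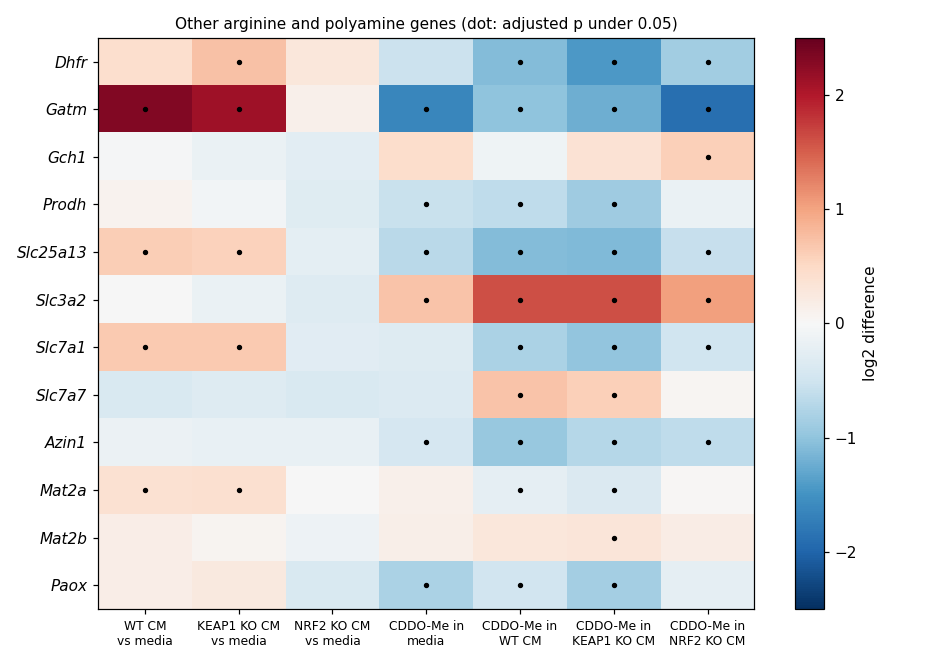
Colors give the log2 difference of scaled TPM + 1 for 12 genes of the other arginine (upper rows) and polyamine (lower rows) lists, in 3 comparisons of CM with media and 4 of CDDO-Me with vehicle, and dots mark an adjusted p under 0.05. *Slc3a2* is raised and *Azin1* lowered by CDDO-Me in all 4 media, and *Gatm* is raised by WT and KEAP1 KO CM.

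Genes whose 8 group means ran most like those of a member were named by Pearson's r on the log2 scale, as a description. Nearest to *Arg1* were *Cldn11*, *Kcnd3* and *Chil4* (r = 0.9996, 0.9992 and 0.9989), and *Cldn11* was nearest to *Slc7a2* too (r = 0.9977). *Cldn11*, a tight junction claudin, had means of 21.1 ± 13.1 TPM in WT CM/vehicle and 22.8 ± 10.5 TPM in KEAP1 KO CM/vehicle, and at most 0.0978 TPM in the other groups. Nearest to *Nos2* were *Klrb1b*, *Ubd* and *Bid* (r = 0.9993, 0.9990 and 0.9987). *Ubd*, a ubiquitin-like modifier, had means of 20.6 ± 4.50 TPM and 27.0 ± 9.90 TPM in WT and KEAP1 KO CM/CDDO-Me and at most 0.220 TPM elsewhere. Nearest to *Ass1* were *Gm19076*, *Gstp1* and *Tshz1* (r = 0.9907, 0.9905 and 0.9886), and nearest to *Srm* were *Htra4*, *Fkbp5* and *Ltc4s* (r = 0.9908, 0.9849 and 0.9842).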

How the data were processed

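Poly-A RNA of 24 BMDM cultures was sequenced as paired-end reads. The authors pseudo-aligned the reads with kallisto to GRCm39 transcripts, and the deposited values per gene symbol were read as TPM. The table is named as counts, but each library sums to 1000000 TPM, with 0.0199% to 0.0635% on 1 line without a symbol, which was left out. Read depth is therefore unknown, and count models were not used. TPM were divided by trimmed-mean (TMM-type) factors, 1 was added and log2 taken. Genes above 1 TPM in at least 3 libraries (13661) were fitted with limma 3.58.1 in R 4.3.3 (8 group means, 16 residual degrees of freedom, moderated variance with a trend), for 17 comparisons, two-sided, with Benjamini-Hochberg adjustment over all genes tested. The script was tested on simulated data. Alternatives were other scalings, filters and pseudocounts, no trend, a replicate block and each library left out. Named genes were all members, up to 3 pathway genes per list, direction and comparison with the smallest adjusted p, and 3 genes per member with the most similar group means, and a gene on which a small count rests could be named too. The members and lists were chosen with earlier results of these data known. Coordinates and upstream sequence came from GRCm39 and GENCODE vM39, read with pysam.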

Additional observations from a re-analysis of the deposited data

Results flagged for a closer look

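The effect of CDDO-Me on 5 members differed between conditioned medium and control medium by a test of the difference itself (an interaction term in limma, on the log2 scale). In WT CM minus media, the difference of effects was -9.07 for *Arg1* (adjusted p = 1.35e-14), -3.15 for *Slc7a2* (adjusted p = 3.74e-06), -1.04 for *Srm* (adjusted p = 0.00977), 2.75 for *Nos2* (adjusted p = 0.00823) and 1.77 for *Ass1* (adjusted p = 0.0234). In KEAP1 KO CM minus media, it was -9.69 for *Arg1* (adjusted p = 7.16e-15), -2.96 for *Slc7a2* (adjusted p = 8.39e-06), -1.34 for *Srm* (adjusted p = 0.00123), 3.01 for *Nos2* (adjusted p = 0.00412) and 1.68 for *Ass1* (adjusted p = 0.0317). Both sets share the media libraries. *Arg1* read 0.0884 to 0.301 TPM in media/vehicle, so with 1 added its effect in media (-0.12) could hardly be more negative, and its values above restate its effects within CM (-9.19 in WT CM and -9.81 in KEAP1 KO CM). For *Slc7a2*, at 5.22 to 5.64 TPM in media/vehicle, even a complete loss in media would be smaller than its falls in CM. The sign of its values above was therefore fixed in advance. *Nos2* was above 1 TPM in 6 libraries, all with CDDO-Me in WT or KEAP1 KO CM, and was tested only because of them. Groups of 3 libraries are too small for the test of single outlying libraries.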

How the results depend on the processing

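Of 45 called member differences, 35 stayed called in the same direction under every alternative, and none reversed. Another 85 of 5432 recomputed values changed sign while past the threshold in neither fit. A filter of TPM above 5 left 1 member called for CDDO-Me in NRF2 KO CM and 1 for NRF2 KO CM/CDDO-Me against media/vehicle, since *Arg2* was no longer tested in it. Without the NRF2 KO CM replicate 3 libraries, 4 members were called for WT CM against media and 4 for WT CM against NRF2 KO CM. Over all genes, leaving out those libraries moved the calls from 988 to 2552 for WT CM, 1101 to 2850 for KEAP1 KO CM and 822 to 2021 for CDDO-Me, each against media/vehicle. For CDDO-Me in WT CM it was 3809 to 5838, in KEAP1 KO CM 3932 to 6076, for WT CM/CDDO-Me against media/vehicle 3662 to 5961, for KEAP1 KO CM/CDDO-Me 3538 to 5719, and for the differences of drug effects from media 2093 to 3836 (WT CM) and 2027 to 3951 (KEAP1 KO CM). Leaving out 1 library at a time gave 2 to 4 members for KEAP1 KO CM against NRF2 KO CM (2 without KEAP1 KO CM/vehicle replicate 2), 1 to 3 for CDDO-Me in NRF2 KO CM (1 without NRF2 KO CM/vehicle replicate 1 or NRF2 KO CM/CDDO-Me replicate 3) and 1 to 4 for NRF2 KO CM/CDDO-Me against media/vehicle (4 without NRF2 KO CM/vehicle replicate 3, 1 without NRF2 KO CM/CDDO-Me replicate 3). The *Ass1* difference of drug effects was not called without media/vehicle replicate 1, WT CM/vehicle replicate 3, media/CDDO-Me replicate 2 or WT CM/CDDO-Me replicate 1 (WT CM), nor without media/vehicle replicate 1 or 2, KEAP1 KO CM/vehicle replicate 2 or 3, media/CDDO-Me replicate 2 or KEAP1 KO CM/CDDO-Me replicate 1 (KEAP1 KO CM). Omitting the scaling shifted the median of all genes by -0.12 and -0.17 for CDDO-Me in WT and KEAP1 KO CM. The fit takes 1 estimate of the spread per gene from all 8 groups. Libraries left out of 1 group therefore also change the tests between other groups. What set the NRF2 KO CM replicate 3 libraries apart was not tested, nor was the cause of the other changes. Read depth, which limits low genes such as *Nos2* and *Arg2*, is unknown.

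Libraries with the same replicate number deviated together on average (mean r = 0.256, lowest 0.0231, above 0.1 in 71 of 84 pairs), and 22 of 24 libraries correlated best with their own number. The labels number the libraries alike in every group without saying what a number marks. With the replicate block, 4 members were called for WT CM against media and 4 for WT CM against NRF2 KO CM, *Srm* and *Sat1* being added there. It also added *Srm* for KEAP1 KO CM against media, *Sat1* for KEAP1 KO CM against NRF2 KO CM and for WT CM/CDDO-Me against media/vehicle, and *Sms* for the drug effect in WT CM minus media, and no member lost a call. The block also raised the calls over all genes from 988 to 1743 for WT CM against media, 1101 to 1784 for KEAP1 KO CM, 1449 to 2550 and 1235 to 2202 for these against NRF2 KO CM, 822 to 1464 for CDDO-Me in media, 1313 to 1986 in NRF2 KO CM and 1392 to 2189 for NRF2 KO CM/CDDO-Me against media/vehicle.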
